A study of Homo sapiens with 12 samples.

Results

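Cyclins and cyclin-dependent kinases (CDKs) were examined as a group of 10 human genes among the 20136 protein-coding genes of the reference: the D-type cyclins CCND1, CCND2 and CCND3, their kinases CDK4 and CDK6, the S-phase cyclins CCNE1 and CCNA2 with CDK2, and the mitotic cyclin CCNB1 with CDK1. The genes were taken from a list of names, and each was described by the H3K4me3 peaks within 1, 2.5 or 10 kb of its most 5′ annotated end in each library. The libraries were made by CUT&RUN, in which an antibody brings a nuclease to its target on chromatin and the released DNA is sequenced. The cells were BON1, a human pancreatic neuroendocrine tumor line, either the control (BON1/TGL/pQ) or BON1/TGL/HA-Bcl-xL, which overexpresses an HA-tagged form of the anti-apoptotic protein Bcl-xL. The comparison asks how this overexpression bears on the mark. Both were grown with puromycin, and 500000 cells were used per condition. There were 3 H3K4me3 libraries of control cells, 2 of HA-Bcl-xL cells (replicates 2 and 3; replicate 1 was not analysed here), and 3 libraries of each with a rabbit anti-mouse IgG as background. All came from a single parental line, and the labels do not say whether replicates were separate cultures, so p-values measure only the spread between these libraries, which may be technical.

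Cyclins are the regulatory subunits that switch on CDKs. Cyclin D with CDK4 or CDK6 begins the phosphorylation of the RB protein in G1, cyclin E and then cyclin A with CDK2 drive entry into and passage through S phase, and cyclin B1 with CDK1 drives mitosis. The D-type cyclin genes answer to growth signals, whereas CCNE1 is a target of E2F factors, and CCNA2, CCNB1 and CDK1 are repressed in resting cells and switched on late in the cycle. H3K4me3 marks the starts of active genes and of many CpG-rich genes that are only poised.

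The H3K4me3 lists held 10247 to 17711 peaks, whose summits had a median height of 9 to 12 fragments, and the IgG lists held 244 to 2113. Control replicate 1 had the longest list and control replicate 3 the shortest. At this depth a start with no peak is one at which no enrichment was called, not one shown to lack the mark. Of the neuroendocrine marker genes, 4 of 10 (CHGB, NEUROD1, SCG2 and SCG3) were marked within 1 kb of the 5′ end by each of the 5 H3K4me3 libraries and 7 by at least 1. Within 2.5 kb these counts were 5, with INSM1 added, and 10. Of the epithelial markers, 3 of 4 had a peak in all 5, although KRT8 and KRT18 share the same peaks. Within 1 kb of the 5′ end no fibroblast marker (0 of 4), blood marker (0 of 4) or endothelial marker (0 of 1 matched) had a peak in any library, and within 2.5 kb the fibroblast marker COL1A1 had 118 bp under a peak in HA-Bcl-xL replicate 2.

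The members fell into 3 patterns. CDK2, CCNB1 and CCNA2, genes of S phase and mitosis, carried a peak within 1 kb of their start in all 5 libraries, as did CDK1 and CDK4 when the start of the main transcript was used. CCND1 carried one only in the 2 HA-Bcl-xL libraries, and CDK6 and the main start of CCND3 only in 1 library of each kind. CCND2 and CCNE1 had no peak near any start in any library.

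The sequences upstream of 5 of these starts are printed here because the peaks described below either cover them or leave them bare. They are RefSeq promoter entries (GRCh38.p14), located in GRCh37 by exact match and trimmed to the bases before the annotated 5′ end (for CCND3, the main start). They run 5′ to 3′ on the gene's strand. Capitals mark 3 motifs searched on both strands, a match on the opposite strand being shown as its reverse complement, and no 2 matches overlapped. The first is the CCAAT box, which is bound by the factor NF-Y. Another is the GC box of Sp1-type factors, searched as GGGCGG. The last is the cell cycle homology region (CHR), to which MuvB complexes bind, searched as TTTGAA. An E2F-type site (TTTGGCGC, TTTCCCGC, TTTCGCGC or TTTGCCGC) and a TATA box (TATAAA) were also searched, with no match in the printed bases. CCNB1, whose start lay under a peak in all 5 libraries, is chr5:68462727-68462961, plus strand. CCNA2, with a peak over these bases in 2 libraries, is chr4:122745039-122745288, minus strand. CDK1, touched by a peak in 1 library, is chr10:62537839-62538088, plus strand. CCND3 at its main start, covered in 2 libraries, is chr6:41909547-41909796, minus strand. CCNE1, without any peak, is chr19:30302648-30302897, plus strand.
CCNB1: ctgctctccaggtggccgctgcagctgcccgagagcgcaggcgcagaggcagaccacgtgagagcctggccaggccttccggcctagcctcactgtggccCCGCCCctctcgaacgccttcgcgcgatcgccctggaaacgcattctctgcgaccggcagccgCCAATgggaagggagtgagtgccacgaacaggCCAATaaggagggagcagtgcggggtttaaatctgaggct
CCNA2: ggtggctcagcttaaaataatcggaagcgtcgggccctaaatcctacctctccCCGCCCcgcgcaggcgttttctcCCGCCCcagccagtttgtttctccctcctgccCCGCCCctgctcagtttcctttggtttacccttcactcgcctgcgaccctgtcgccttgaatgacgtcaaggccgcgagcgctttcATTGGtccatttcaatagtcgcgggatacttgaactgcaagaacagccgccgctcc
CDK1: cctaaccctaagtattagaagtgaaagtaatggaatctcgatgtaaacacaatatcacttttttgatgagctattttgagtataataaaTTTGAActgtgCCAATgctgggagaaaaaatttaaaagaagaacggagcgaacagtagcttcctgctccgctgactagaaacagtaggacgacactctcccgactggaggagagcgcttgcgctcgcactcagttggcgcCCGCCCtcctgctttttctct
CCND3, main start: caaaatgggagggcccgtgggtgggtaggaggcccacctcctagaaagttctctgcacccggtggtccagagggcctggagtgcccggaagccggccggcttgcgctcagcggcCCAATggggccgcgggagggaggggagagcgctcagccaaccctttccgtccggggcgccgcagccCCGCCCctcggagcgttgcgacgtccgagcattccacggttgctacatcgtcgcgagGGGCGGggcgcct
CCNE1: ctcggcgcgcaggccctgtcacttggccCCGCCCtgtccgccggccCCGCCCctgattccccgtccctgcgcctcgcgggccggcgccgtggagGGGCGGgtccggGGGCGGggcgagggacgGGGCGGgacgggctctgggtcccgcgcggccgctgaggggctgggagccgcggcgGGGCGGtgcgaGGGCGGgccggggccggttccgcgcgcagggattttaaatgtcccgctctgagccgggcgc

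CCNB1 held 2 CCAAT boxes on its own strand. The one at -40 to -36 from the 5′ end lay under a peak in all 5 H3K4me3 libraries and the one at -72 to -68 in 3. CCNA2 held 1 in the opposite orientation at -56 to -52, which lay under a peak in 2 libraries. Upstream of its 5′ end CDK1 held a CCAAT box at -150 to -146 and a CHR at -161 to -156, neither of them under a peak. The entry at the CDK1 main start held further matches beginning at -78 and -46 (CCAAT box) and at -69, -13 and 9 (CHR) from that start, with no peak over them in any library. The main start of CCND3 had a CCAAT box beginning at -136, under a peak in 1 library. CCNE1 held 7 GC boxes, and its entry had no E2F-type site. At CDK1 an E2F-type site (TTTCGCGC) lay at 19 to 26 from the 5′ end, with no peak over it. Over 35116 RefSeq promoters of 300 bases, 34.6% held the CCAAT box, 45.0% the GC box and 15.2% the CHR letters on either strand. Each of these is thus common, whereas the E2F-type letters were held by 3.31%. A match is a description of the window only.

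Within 1 kb of the most 5′ end, control replicates 1 to 3 had a peak at 5, 4 and 4 of the 10 genes (4.33 ± 0.58, SD, n = 3), and HA-Bcl-xL replicates 2 and 3 at 7 and 6 (6.50 ± 0.71, SD, n = 2). The HA-Bcl-xL libraries were thus both higher than the control libraries, by 2.17 genes on average. Over all protein-coding genes the share with such a peak was 40.4, 32.4 and 28.2% in the control libraries and 38.1 and 36.5% in the HA-Bcl-xL libraries, so that the ranges overlapped. No member had a peak there in any of the 6 IgG libraries, against 0.785% of all genes with one in at least 1, and within 10 kb 2 members had one (CCND1 and CDK4), against 4.47%. Around the main start the counts were 7, 5 and 5 in control and 8 and 6 in HA-Bcl-xL libraries, which overlap. The difference varied with the start and the list length, and was 1.33 genes at the main start and 1.17 with the lists made equally long.

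**Figure D1:**
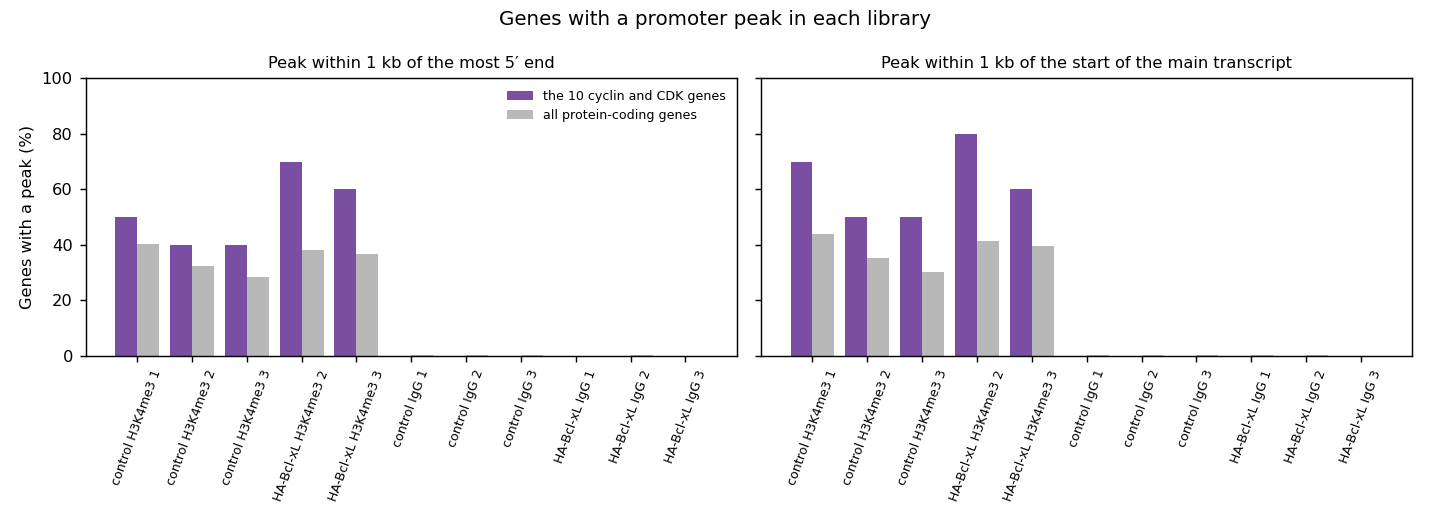
Percentage of the 10 cyclin and CDK genes and of all protein-coding genes with a peak within 1 kb of the most 5′ end (left) or of the main transcript's start (right), 1 pair of bars per library. The H3K4me3 bars of the 10 genes run from 40 to 80%, and those of the IgG libraries are at 0.

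In all, 4 of the 10 genes (CCND3, CCNA2, CCNB1 and CDK2) were called within 1 kb of the 5′ end by every one of the 5 H3K4me3 libraries, against 21.3% of all protein-coding genes. There were 7 with a peak in at least 1 library, against 48.2%, and 3 with none (CCND2, CCNE1 and CDK4), against 51.8%. CCND1 and CDK1 were the 2 genes called by both libraries of HA-Bcl-xL cells but by none of the control cells, a pattern of 0.844% of all genes. No member had the converse pattern (0 of 10, against 0.248%). The call for both genes was lost when peaks were held to a minimum -log10 q of 5, or when the 5 lists were all limited to their top 10247 peaks, and the call for CDK1 was lost within 2.5 kb. In that wider window 5 members had a peak in all 5 libraries, against 25.6%, and CCND1 was the 1 member called only in HA-Bcl-xL libraries, against 0.824%. At the main start 5 members (CCNA2, CCNB1, CDK1, CDK2 and CDK4) had a peak in all 5 libraries, against 22.9%, and again only CCND1 was called in HA-Bcl-xL libraries alone, against 0.973%. Of the 4 genes called by all 5 libraries at the 5′ end, CCNA2 was lost with a minimum -log10 q of 5. It was also lost when the summit had to lie in the window. The 3 that remained stood against 15.3% and 20.5% of all genes.

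CCND1 (chr11:69455924-69469242, plus strand, GRCh37), the cyclin D1 gene, was called near its start in HA-Bcl-xL libraries only. Control replicates 1 to 3 had 0, 0 and 0 bases under peaks within 2.5 kb of its start, and the values in HA-Bcl-xL replicates 2 and 3 were 87 and 171. In HA-Bcl-xL replicate 2 the peak covered the first 87 bases of the gene, from 0 to 86, with 9 fragments at the summit. It was a weak peak, with the authors' -log10 q of 4.27 and a rank above 24.4% of its list. In replicate 3 a peak with 20 fragments, ranked above 89.8% of its list, covered -64 to 29, and a weaker one lay at -2045 to -1969. The nearest peak of each control library lay 34227 bp from the start. The group means differed by 129 bp, with an exact two-sided permutation p of 0.2, taken as 2 times the smaller one-sided p, which is the smallest that 3 against 2 libraries allow in this form, so no difference could pass 0.05. With a minimum -log10 q of 5, or with equal lists, the difference was 47 bp (exact permutation p = 0.8). An IgG peak of 3 fragments lay in an intron at 6255 to 6340 in control replicate 2, outside the 2.5 kb window but 461 bp from a later annotated start.

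CCND2 (chr12:4378937-4414519, plus strand), the cyclin D2 gene, had 0 bases under peaks in each library within 10 kb of any of its 6 transcript starts. The nearest H3K4me3 peak lay 42.0, 370 and 260 kb from any start in control replicates 1 to 3, and for HA-Bcl-xL replicates 2 and 3 this distance was 260 and 42.8 kb. Control and HA-Bcl-xL libraries were thus alike in having no called peak at CCND2.

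CCND3 (chr6:41902672-42018095, minus strand), the cyclin D3 gene, showed how the choice of start shapes the call. Within 2.5 kb of its most 5′ end it had 193, 199 and 120 bases under peaks in control replicates 1 to 3, and the values for HA-Bcl-xL replicates 2 and 3 were 191 and 180. The groups overlapped, and 81 of the 191 bases came from a further peak at 1601 to 1681. By limma the log2 difference was 0.04 (SE 0.42, adjusted p = 0.996). All 5 libraries had a high-ranking peak there, ranked above 86.9 to 98.2% of its list with 12 to 29 fragments, and its shared stretch (chr6:42018512-42018596) lay from -501 to -417, over an exon of TAF8. TAF8, which encodes a subunit of the general transcription factor TFIID, starts at -156 on the other strand, and these summits were nearest to its starts. The main CCND3 transcript starts 108549 bp further in. Around that start the bases under peaks were 169, 0 and 0 in control and 343 and 0 in HA-Bcl-xL libraries, with peaks of 6 to 8 fragments. The call at CCND3 in all 5 libraries therefore came from a peak nearer to TAF8, and at the main start the mark was called in 1 library of each line.

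CDK4 (chr12:58141510-58149796, minus strand), a kinase partner of the D-type cyclins, had the reverse arrangement. No library had a peak within 2.5 kb of its most 5′ end, but all 5 had one near its main start, 3703 bp downstream. There the bases under peaks were 170, 173 and 151 in control replicates 1 to 3, and the values for HA-Bcl-xL replicates 2 and 3 were 193 and 105, and the groups overlapped. The peaks had 8 to 16 fragments and shared the stretch from 373 to 471 past the main start (chr12:58145622-58145720), in an intron of the main transcript and an untranslated exon of another. With any annotated start used, limma gave CDK4 a log2 difference of -0.31 (SE 0.43, adjusted p = 0.997). Within 10 kb of the 5′ end the limma value was -0.705 (SE 0.422, adjusted p = 0.988). That window also held peaks at -8891 to -8800 and -9596 to -9488 in control replicate 1. A separate peak in all 5 libraries lay about the starts of TSPAN31, the gene next to its 3′ end, beginning 7239 to 7271 bp past the main start. The IgG peak near CDK4, with 4 fragments in control replicate 1, lay at -3382 to -3286 from the 5′ end.

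CDK6 (chr7:92234235-92465887, minus strand), the other D-type kinase, was called in 2 libraries. Within 2.5 kb the bases under peaks were 89, 0 and 0 in control and 111 and 0 in HA-Bcl-xL libraries. The groups overlapped and their means differed by 25.8 bp (exact two-sided permutation p = 0.8). The peaks of control replicate 1 (934 to 1022) and HA-Bcl-xL replicate 2 (945 to 1055) lay over the same part of an intron and had 24 and 25 fragments. The background solved at these summits, 2.67 and 2.28 fragments, was the highest of the member peaks, and they ranked above 75.8 and 87.2% of their lists. Control replicate 2 had a peak over a coding exon at 3410 to 3504, with 15 fragments, 754 bp from a later annotated start. A further intronic peak about 118 kb into the gene, starting at 118277 in control replicate 1, 118415 in HA-Bcl-xL replicate 2 and 118307 in HA-Bcl-xL replicate 3, had 4 to 7 fragments. Near its main start CDK6 was called in 1 library of each line, at nearly the same place, and with any start counted it was called in 2 control and 1 HA-Bcl-xL libraries.

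CCNE1 (chr19:30302898-30315219, plus strand), the cyclin E1 gene, had 0 bases under peaks in every library within 10 kb of any of its 6 starts. The nearest H3K4me3 peak lay 120, 23.3 and 206 kb from any start in control replicates 1 to 3, and for HA-Bcl-xL replicates 2 and 3 this distance was 120 and 121 kb. Its start was the richest in G and C of the 10, with 73.0% over 1 kb on each side, against a median of 55.0% for all genes. When all genes were divided into 10 classes of nearly equal size by this measure, the top class of 2012 genes also held the 5′ end of CDK4 (66.2%). In that class 9.84% had a peak in all 5 libraries and 52.9% had none, against 21.3% and 51.8% of all genes. The part of base composition in the missing CCNE1 call was not tested.

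CCNA2 (chr4:122737599-122745038, minus strand), the cyclin A2 gene, had 291, 160 and 137 bases under peaks within 2.5 kb in control replicates 1 to 3, and the values for HA-Bcl-xL replicates 2 and 3 were 236 and 177. The groups overlapped, and limma gave a log2 difference of 0.02 (SE 0.41, adjusted p = 0.999). The recurrent peak was not at the start but in an intron, and the 5 libraries shared the 57 bases from 910 to 966 (chr4:122744072-122744128). Its summits had 8 to 17 fragments. These shared bases, shown as the point where the CCNA2 peaks of all libraries meet, hold 2 CpG sites, in capitals.
CCNA2, shared intronic stretch: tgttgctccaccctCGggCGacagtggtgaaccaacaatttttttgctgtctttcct
A second peak was listed in control replicate 1, where it covered the start (-110 to 28), and in HA-Bcl-xL replicate 2, where it ended 27 bp before it (-110 to -27), with 12 and 8 fragments. These are the libraries with the longest list of their line.

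CDK2 (chr12:56360565-56366573, plus strand), the kinase of cyclins E and A, carried the highest-ranked promoter peak of the group in each of the 5 H3K4me3 libraries. The bases under it were 162, 184 and 163 in control replicates 1 to 3, and the values for HA-Bcl-xL replicates 2 and 3 were 198 and 200, so every HA-Bcl-xL value lay above every control value. The peak ranked above 95.5 to 99.0% of its list and had 19 to 32 fragments. Its downstream edge lay at 66 to 74 in all 5 libraries and its upstream edge at -87, -117 and -88 in control and -131 and -125 in HA-Bcl-xL libraries. All libraries shared the bases from -87 to 66 (chr12:56360478-56360631), which hold the first bases of the gene and an exon of a PMEL transcript on the other strand. By limma the log2 difference was 0.11 (SE 0.43, adjusted p = 0.996). The peaks 6740 bp and more downstream, present in all 5 libraries, lay nearest to starts of PMEL and RAB5B.

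CCNB1 (chr5:68462962-68474072, plus strand), the cyclin B1 gene, had 243, 315 and 80 bases under peaks in control replicates 1 to 3, and the values for HA-Bcl-xL replicates 2 and 3 were 366 and 255. The groups overlapped, and control replicate 3, the library with the shortest list, was the lowest. A peak over the start was present in all 5 libraries with 9 to 18 fragments, and the shared stretch ran from -68 to 10 (chr5:68462894-68462972). This stretch includes the CCAAT box at -40 to -36 shown above. A second, intronic peak within 439 to 718 was present in 4 libraries and not in control replicate 3. By limma the log2 difference was 0.62 (SE 0.48, adjusted p = 0.987). It was 0.22 without control replicate 3 and 1.05 without control replicate 2.

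CDK1 (chr10:62538089-62554610, plus strand), the mitotic kinase, had 240, 131 and 227 bases under peaks within 2.5 kb in control replicates 1 to 3, and the values for HA-Bcl-xL replicates 2 and 3 were 358 and 325, with no overlap. By limma the log2 difference was 0.71 (SE 0.44, adjusted p = 0.987). It was 0.47 without control replicate 2 and 1.02 without control replicate 3. Within 1 kb of the 5′ end CDK1 was called in HA-Bcl-xL libraries alone, because only these had peaks inside that limit. The control libraries had 1 peak each, beginning 1134, 1038 and 1083 bp into the gene, just past the 1 kb limit. HA-Bcl-xL replicate 2 had peaks at -122 to -30, 561 to 658, 792 to 879 and 1041 to 1119. HA-Bcl-xL replicate 3 had peaks at 792 to 926, 1187 to 1292 and 2158 to 2241. The peaks of HA-Bcl-xL cells were thus more numerous and narrower, 79 to 135 bp wide against 131 to 240 bp in control cells. They had 9 to 15 fragments at the summit, against 11 to 14. Measured from the main start, 147 bp downstream, the control peaks began at 987, 891 and 936 bp, inside the limit, and CDK1 was then called in all 5 libraries.

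**Figure D2:**
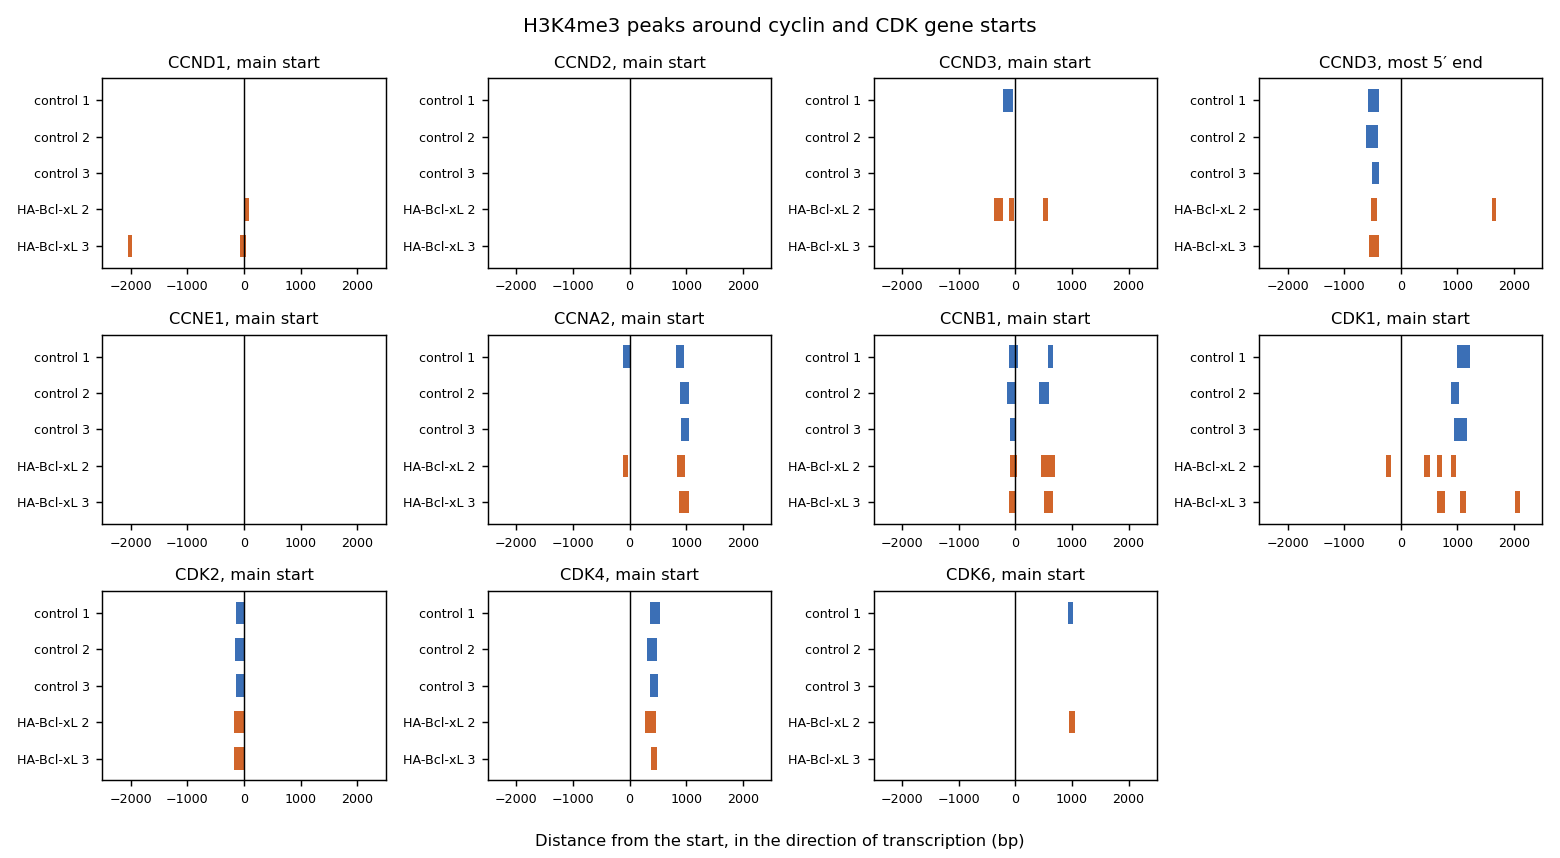
H3K4me3 peaks within 2500 bp of the main transcript's start of each gene, and of the most 5′ end of CCND3, in the direction of transcription (bp). Each row is a library (blue, control; orange, HA-Bcl-xL) and each bar a peak. CDK2, CCNB1 and CDK4 show stacked peaks in all 5 rows, CCND1 shows peaks in the orange rows only, and CCND2 and CCNE1 are empty.

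**Figure D3:**
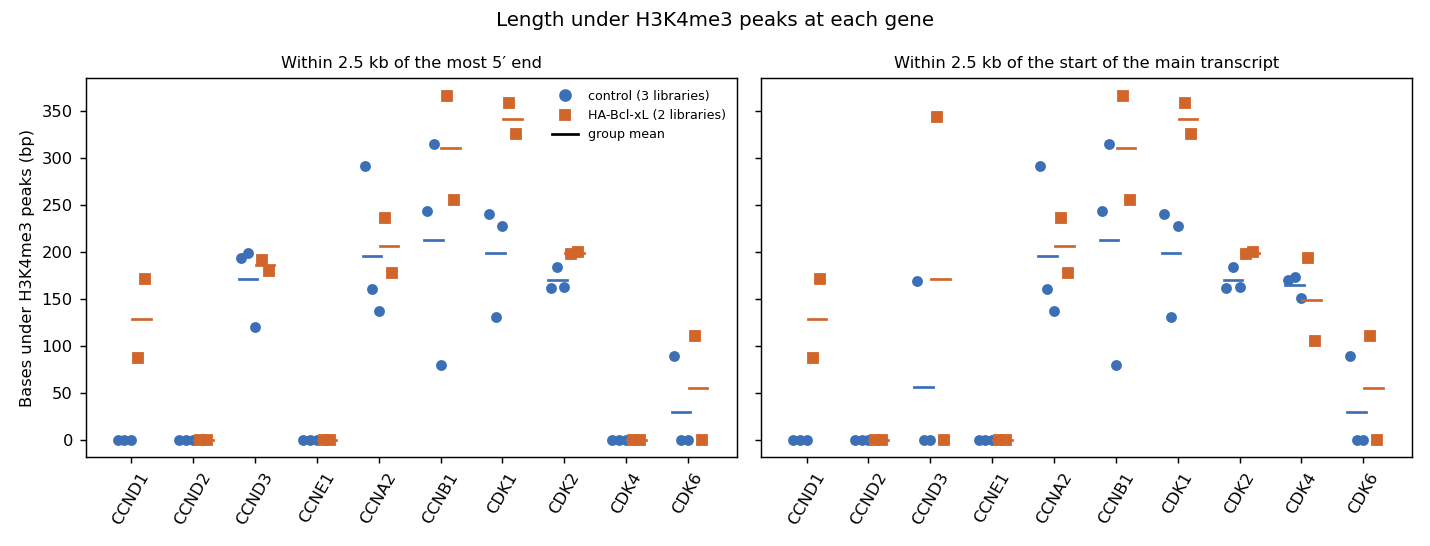
Bases under H3K4me3 peaks (bp) within 2.5 kb of the most 5′ end (left) and of the main transcript's start (right) for each gene. Points are libraries (circles, control; squares, HA-Bcl-xL) and lines are group means. CDK4 is at 0 on the left and between 105 and 193 on the right, and CCND3 is spread from 0 to 343 on the right.

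Both HA-Bcl-xL values lay above all control values in 2 of the 5 members with a peak in all 5 libraries (CDK1 and CDK2), against 9.44% of the 5151 genes tested, and below them in 0, against 5.77%. CCND1 brings the first count to 3 of 10 members, against 5.13% of all protein-coding genes. None of the 5 members in the limma fit passed the threshold of 0.05 after Benjamini-Hochberg adjustment (0 of 5), and neither did any other of the 5151 genes (0%), of which 269 (5.22%) had an unadjusted p under 0.05. No member was among those. With HA-Bcl-xL replicate 2 or replicate 3 left out, 2 and 3 genes passed, none of them a member, but these fits have 1 HA-Bcl-xL library, which is assumed to vary like the control libraries. The median log2 difference was 0.11 over the 5 members and -0.02 over all genes tested. Among the members it ran from 0.02 at CCNA2 to 0.71 at CDK1, and 5.69% of genes had a larger value than CDK1.

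The bases under peaks, summed within 2.5 kb, were near or below the median of all genes tested. The mean of the group means was 178 bp at CCND3, 184 bp at CDK2, 201 bp at CCNA2, 262 bp at CCNB1 and 270 bp at CDK1, against a median of 258 bp over the 5151 genes (quartiles 192 and 348 bp). At CDK2 this sum exceeded that of 22.7% of these genes and came from 1 peak, 162 to 200 bp wide, where the median peak width of the 5 lists was 112 to 128 bp.

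**Figure D4:**
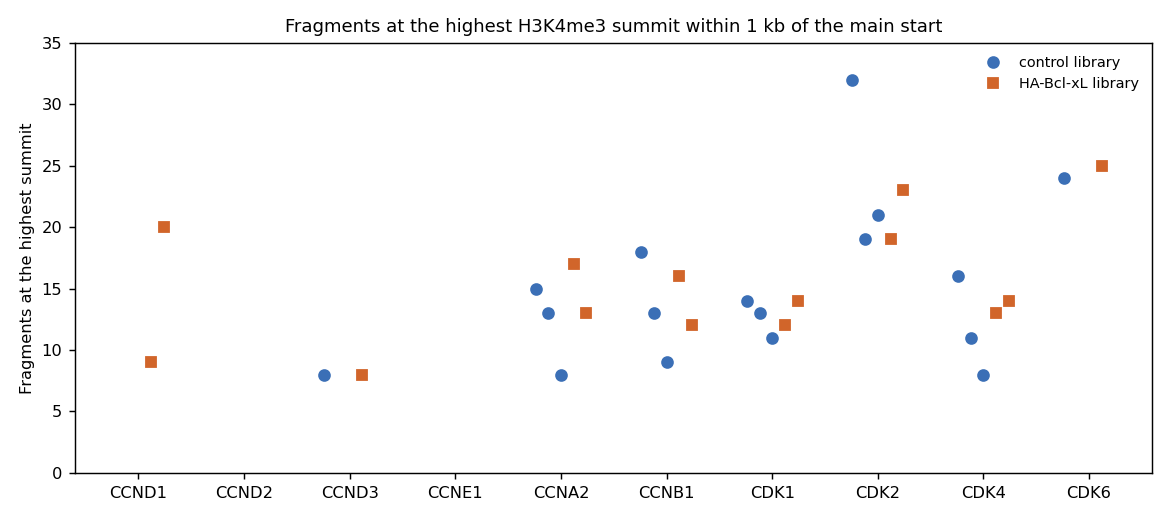
Number of fragments at the highest H3K4me3 summit within 1 kb of the main transcript's start, by gene and library (circles, control; squares, HA-Bcl-xL); a gene has no symbol where no peak was listed. CDK2 has 19 to 32 fragments in all 5 libraries, and CDK6 has 24 and 25 in the 2 libraries with a peak.

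The wider cell cycle machinery, 68 genes in 6 lists, was marked within 1 kb of the 5′ end by all 5 H3K4me3 libraries at 27 genes (39.7%) and by at least 1 at 57, against 21.3% and 48.2% of all protein-coding genes. Transcription cyclins and CDKs, which act on RNA polymerase II, had it in all 5 at 10 of 16 genes. CCNT2, a cyclin subunit of the elongation factor P-TEFb, had 474, 287 and 268 bases under peaks within 2.5 kb in control and 533 and 489 in HA-Bcl-xL libraries, and CCNK, the partner of CDK12, averaged 378 bp. The other cell cycle cyclins had it at 4 of 10 genes, the longest being at CCNJ (449 bp) and at CCNB2 (414 bp), the gene for cyclin B2. The genes of CDK activation and turnover had it at 5 of 12, led by CKS1B (508 bp), a CDK-binding subunit, and SKP2 (403 bp), which targets the CDK inhibitor p27 for destruction. The MuvB, MYB and FOXM1 genes, which control mitotic transcription, had it at 5 of 8, led by RBBP4 (513 bp) and LIN52 (469 bp).

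The RB and E2F genes, which include the RB-family targets of the D-type cyclin kinases, had a peak in all 5 libraries at 2 of 13 (RB1 and E2F8), although 11 had one in at least 1. The longest were at the repressor genes E2F7 (296 bp) and E2F8 (252 bp). The other CDKs had it at 1 of 9, CDK17 (136 bp), followed in length by CDK16 (131 bp). E2F6, a repressor of the E2F family, was the 1 gene of the 68 called in HA-Bcl-xL replicates 2 and 3 (100 and 146 bp) but never in control cells, against 0.844% of all genes, and 0 of 68 had the converse at the 5′ end, against 0.248%. At the main start LIN54, the DNA-binding subunit of MuvB, was the 1 gene with a peak in all 3 control and neither HA-Bcl-xL library, against 0.233% of all genes. No list gene had an IgG peak within 1 kb of the 5′ end. Of the 33 list genes in the limma fit, 0 passed the threshold and 1 had an unadjusted p under 0.05. That gene was CDC25C, a phosphatase that activates CDK1, with 214, 126 and 104 bp in control replicates and 543 and 296 bp under HA-Bcl-xL (log2 difference 1.39, SE 0.42, adjusted p = 0.799), named after its values were seen.

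**Figure D5:**
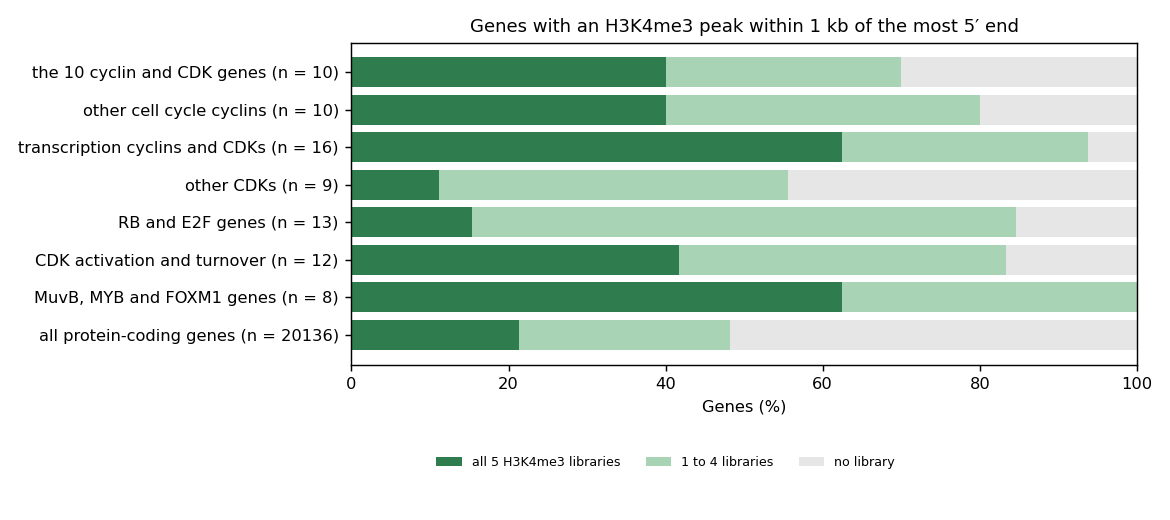
Percentage of genes with an H3K4me3 peak within 1 kb of the most 5′ end in all 5 libraries (dark), in 1 to 4 (light) or in none (grey), for the 10 cyclin and CDK genes, the 6 wider lists and all protein-coding genes. The dark bar is 40% for the 10 genes and 21.3% for all genes.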

How the data were processed

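The deposited data were 11 narrowPeak lists, called per library by the authors. Per the submitters' processing notes, hg19, bcl2fastq 2.20, Trimmomatic 0.36, Bowtie2 2.2.9, MACS2 2.1.1 and deepTools 3.5.1 were named. Settings and duplicate handling are not given in the sources used here. For every peak the deposited lists give the authors' score, fold enrichment (a ratio), -log10 q and -log10 p. These were used only to describe, rank or filter peaks within a list. Fold and -log10 p were solved for the whole number of fragments at the summit, which was found to a tolerance of 0.001 (-log10 p) at 95.9 to 99.97% of a list's peaks. Whether these are fragments or single reads is not recorded. PCR copies are not independent molecules.

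Genes were those of GENCODE release 44 on GRCh37. The main start is that of the MANE Select transcript, which all 10 members have. Genes without such a transcript took the Ensembl canonical one, or else the first by identifier. A gene was called with at least 1 bp of peak in the window. Positions are in bp in the direction of transcription, 0 being the start. Bases under peaks within 2.5 kb were tested by limma 3.58.1 (R 4.3.3) on log2 values, libraries centred on their medians, over genes with a peak in all 5 H3K4me3 libraries, with Benjamini-Hochberg adjustment. Other members were tested by exact permutation. The limma step was run on simulated data with known changes, and the share of these it recovered is not given here. Python 3.11.15 and scipy 1.17.1 were used. Promoter sequences matched 7 of the 10 genes.

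The members and lists were chosen with earlier results of these data known. The rule named all members, pathway genes called in one line only or past the limma threshold, the 2 with the most bases per list, and neighbours with a nearer peak. Alternatives were stricter or equal lists, other windows and starts, removal of IgG peaks, summit position, centring, a filter of 2 libraries with a pseudocount of 100 bp, replicate block and leaving out each library. The main start was added after seeing the data. The value of one marker gene is not reported here.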

Additional observations from a re-analysis of the deposited data

How the results depend on the processing

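Peak lists give no read totals, so relative depth rests on list length and summit fragments, and a start without a peak may carry the mark below the calling limit. With 3 against 2 libraries no exact test can pass 0.05. The excess of called members in HA-Bcl-xL libraries, 2.17 genes, was 1.5 with a -log10 q of at least 5, 1.17 with equal lists or a 2.5 kb window, 0.83 with a 10 kb window or any start, 1.33 at the main start and 2.83 when the summit had to lie in the window. Members called in all 5 libraries, 4 as reported, were 3 with a -log10 q of at least 5 or with the summit in the window, both times without CCNA2. They were 6 with the 10 kb window (29.7% of all genes) or any start (26.5%). Members called only in HA-Bcl-xL libraries, 2 as reported, were 0 with a -log10 q of at least 5 or equal lists and 1 with the 2.5 kb window, the 10 kb window, any start or the main start. The count of genes past the limma threshold, 0 as reported, was 0 to 3 with 1 library left out, reaching 2 without HA-Bcl-xL replicate 2 and 3 without replicate 3, fits in which the lone HA-Bcl-xL library is assumed to vary like the control libraries. The cause of the other changes was not tested.

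Same-numbered libraries showed no clear shared deviation (correlations of 0.00455 and 0.0297 over 5151 genes). The deviations of the 2 HA-Bcl-xL libraries mirror each other, so this cannot show whether same-numbered libraries were processed together. With the replicate number as a block, 2 genes passed. That fit has few libraries left to estimate the spread, and each member had the same SE of 0.516. Among small member differences, the block turned CCND3 to -0.085 and CDK2 to -0.15 (log2). CCND3, 0.038 as reported, was 0.49 with any start, -0.37 in the 1 kb window and -0.042 with genes in at least 2 libraries on log2(bases + 100), CCNA2 -0.21 with equal lists and -0.054 with that same filter and pseudocount, CDK2 -0.051 in the 10 kb window and -0.080 with any start, and CDK6 -5.83 bp in the 10 kb window or with any start. With 1 library left out, CCND3 ran from -0.094 (without control replicate 1) to 0.20, CCNA2 from -0.13 (without HA-Bcl-xL replicate 2) to 0.17, being -0.047 without control replicate 2, CDK2 from -0.16 (without control replicate 1) to 0.28, and CDK6 from -29.7 bp (without HA-Bcl-xL replicate 2) to 81.3 bp. CCND1, 129 bp as reported, was 47 bp with a -log10 q of at least 5 or equal lists. CCNB1, 0.62 as reported, was 1.02 with a -log10 q of at least 5 and 0.33 with the filter and pseudocount, where CDK1, 0.71 as reported, was 0.45 and CCND1 was 1.04 (limma, log2, adjusted p = 0.856). CCNB1 and CDK1 kept the sign reported in every alternative that gave them a value. CDK1 had no value with a -log10 q of at least 5, with equal lists or in the 1 kb window. The sign of CCND1 could not turn, because no control library had a peak near its starts.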
